A study of Mus musculus with 12 samples.

Results

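The 10 genes described here belong to the integrated stress response and to the serine and one-carbon enzymes that it can induce. They are Atf4, Ddit3, Trib3, Chac1 and Sesn2 on the stress side and Asns, Psat1, Phgdh, Shmt2 and Mthfd2 on the amino acid side, 10 of 18193 genes measured. Each gene was read from the probe set with the highest mean over the 12 arrays among those annotated to that gene alone. RNA came from CD8 T cells sorted from mice that the labels give as strain C57bl/c and 6 to 8 weeks old, with 1 Affymetrix mouse array per sample. The PD-1+ Tim-3+ tumour-infiltrating lymphocytes (TIL, n = 4) were also sorted as 2B4+ and are called exhausted in the labels, whereas the PD-1+ Tim-3- TIL (n = 3) were sorted as 2B4- and are called stem-like. Both came from B16F10-GP, a skin melanoma line injected into the flank, and were sorted at days 17 to 19. Naive CD8 T cells (n = 5) came from the spleen of naive mice. Tumours were digested with collagenase and DNase in the warm and cells passed over Percoll, and the labels describe no such step for spleen. The labels do not say whether arrays of 1 group came from separate mice, so p-values measure the spread between these samples only.

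In the integrated stress response, kinases that sense amino acid shortage, unfolded protein, haem shortage or double-stranded RNA phosphorylate the translation factor eIF2. General translation then slows while the transcription factor ATF4 is translated more, so the level of Atf4 mRNA does not read ATF4 protein. ATF4, often with C/EBP partners, induces genes for amino acid synthesis and transport, tRNA charging and stress feedback through a composite C/EBP-ATF element in their promoters. Serine synthesis from a glycolytic intermediate, followed by the folate enzymes of mitochondria, gives the glycine and one-carbon units that dividing T cells use for purines and thymidylate.

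Promoters of the members are shown because ATF4 can act through the C/EBP-ATF element, whether or not each member carries it. All 10 genes had a promoter in RefSeq (GRCm38.p6), 11 in all since Psat1 has a pair of start sites. Each window of 300 bases ran from 250 bases before the start to 50 bases after it. The letters TGATGNAA and TGACGNAA were searched on both strands, with no overlap between their matches in these promoters. TGATGNAA was found in 3 of 11 member promoters, those of Asns, Chac1 and Trib3, against 3.97% of 32851 promoters of the same length. TGACGNAA was found in 1 of 11, that of Chac1, against 1.59% of all promoters. A match is a description of letters and not a bound site. The upstream sequences below are in lower case with the matches in capitals, 5′ to 3′ on the strand of the gene, for Asns (chr6:7693210-7693459, minus strand), Chac1 (chr2:119350992-119351241, plus strand), Psat1 at its farther upstream start (chr19:15925060-15925309, minus strand) and Mthfd2 (chr6:83317605-83317854, minus strand), and for Trib3 as the 30 bases around a match that lies just inside the transcript (chr2:152344028-152344057, minus strand).
Asns: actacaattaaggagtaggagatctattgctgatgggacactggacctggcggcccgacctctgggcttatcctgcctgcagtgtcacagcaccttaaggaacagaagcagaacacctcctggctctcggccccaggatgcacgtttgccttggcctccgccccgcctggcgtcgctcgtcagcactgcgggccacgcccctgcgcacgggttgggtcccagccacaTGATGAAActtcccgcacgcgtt
Chac1: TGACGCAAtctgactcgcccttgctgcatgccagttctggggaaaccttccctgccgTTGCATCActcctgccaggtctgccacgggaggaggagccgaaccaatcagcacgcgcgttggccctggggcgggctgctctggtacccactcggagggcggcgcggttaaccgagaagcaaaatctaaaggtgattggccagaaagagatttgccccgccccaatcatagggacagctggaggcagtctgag
Trib3: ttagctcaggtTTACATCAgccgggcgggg
Psat1: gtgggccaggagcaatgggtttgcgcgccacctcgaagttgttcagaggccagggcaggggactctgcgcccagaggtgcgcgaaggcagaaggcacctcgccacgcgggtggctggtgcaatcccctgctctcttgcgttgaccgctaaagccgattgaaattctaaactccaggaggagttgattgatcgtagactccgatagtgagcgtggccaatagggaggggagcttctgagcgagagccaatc
Mthfd2: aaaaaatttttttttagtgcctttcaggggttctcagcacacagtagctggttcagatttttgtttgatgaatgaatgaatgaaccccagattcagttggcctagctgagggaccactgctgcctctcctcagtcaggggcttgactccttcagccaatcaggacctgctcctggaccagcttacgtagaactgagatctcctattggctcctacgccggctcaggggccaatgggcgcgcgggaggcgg
The Asns match, TGATGAAA, began 23 bases before the start (position -23) on the strand of the gene. The Chac1 promoter held TTGCATCA, the motif read on the other strand, from position -193, and TGACGCAA from position -250. Psat1 and Mthfd2 are shown as members with large differences below and no match to these letters in this window. The Mthfd2 window belongs to a start site inside the gene span given below (chr6:83305704-83326011), so the bases before the outer end of that span were not searched.

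The arrays were alike in overall signal, with median intensities between 58.8 and 63.0. Across genes, arrays of the same group had correlations of 0.988 to 0.996. The main direction of the deviations from the group means held 35.8% of their sum of squares. Its sign gave 2 sets of arrays that the labels do not name. Deviations cancel within each group, so a split of every group was fixed in advance. The sets come from the spread of these same arrays, so a block on them removes spread by construction. Set A held Tim-3+ replicates 1 and 2, Tim-3- replicate 1 and naive replicates 1 and 2, and set B the other arrays. The 3' minus 5' log2 signal of 4 control transcripts, a reading of RNA integrity and amplification, ranged from -0.22 to 0.20 in Tim-3+ TIL, from 0.00 to 0.21 in Tim-3- TIL and from -0.08 to 0.26 in naive arrays, and was lower in set A than in set B arrays of each group. Changes within each set are given for the members, and for pathway genes where a call that the text gives was lost in a set. Only 1 Tim-3- array lies in set A, and fits there take its spread from the other groups. The Cd8a level averaged 12.85 ± 0.081 in Tim-3+ TIL, 12.63 ± 0.027 in Tim-3- TIL and 12.82 ± 0.035 in naive cells (SD), and 5 of 5 CD8 T cell markers lay above log2 5.71 in every group. Cd8b1, which encodes the other chain of the receptor, was lower in TIL than in naive cells, by -0.70 ± 0.091 in Tim-3+ TIL (adjusted p = 2.11e-05) and -0.76 ± 0.099 in Tim-3- TIL (adjusted p = 3.24e-05).

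Asns, Psat1 and Mthfd2 showed the largest differences of the 10 members. In Tim-3+ TIL against naive cells, 6 of 10 members rose and 1 fell, where 20.1% of all genes rose and 21.4% fell (41.5% in either direction). In Tim-3- TIL against naive cells, 4 members rose and 1 fell, where 16.1% of all genes rose and 18.3% fell (34.4% in either direction). Between the TIL groups 1 of 10 passed the test, higher in Tim-3+ TIL, where 7.77% of all genes were higher and 5.77% lower there (13.5% in either direction), a share near that background. By the arrays alone, 3 members lay wholly higher and 1 wholly lower in Tim-3+ than in Tim-3- TIL, beside 13.1% and 9.57% of all genes (22.7% in either direction). Against naive, 3 were wholly higher and 1 wholly lower in Tim-3+ TIL, beside 18.4% and 18.9% of all genes (37.3%), and 5 and 1 in Tim-3- TIL, beside 16.1% and 19% (35.1%). The median log2 change of the 10 members was 0.43 in Tim-3+ TIL and 0.46 in Tim-3- TIL against naive, beside -0.07 and -0.06 over all genes. These comparisons share the naive arrays. A call here means an adjusted p below 0.05 by limma with Benjamini-Hochberg adjustment over all 18193 genes, levels are mean log2 intensities ± SD, and changes are log2 ± SE. For a gene's other probe sets, p was adjusted over all 34945 probe sets that name 1 gene. In RNA from sorted populations, more cells expressing a gene and more RNA of it per cell cannot be told apart.

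**Figure D1:**
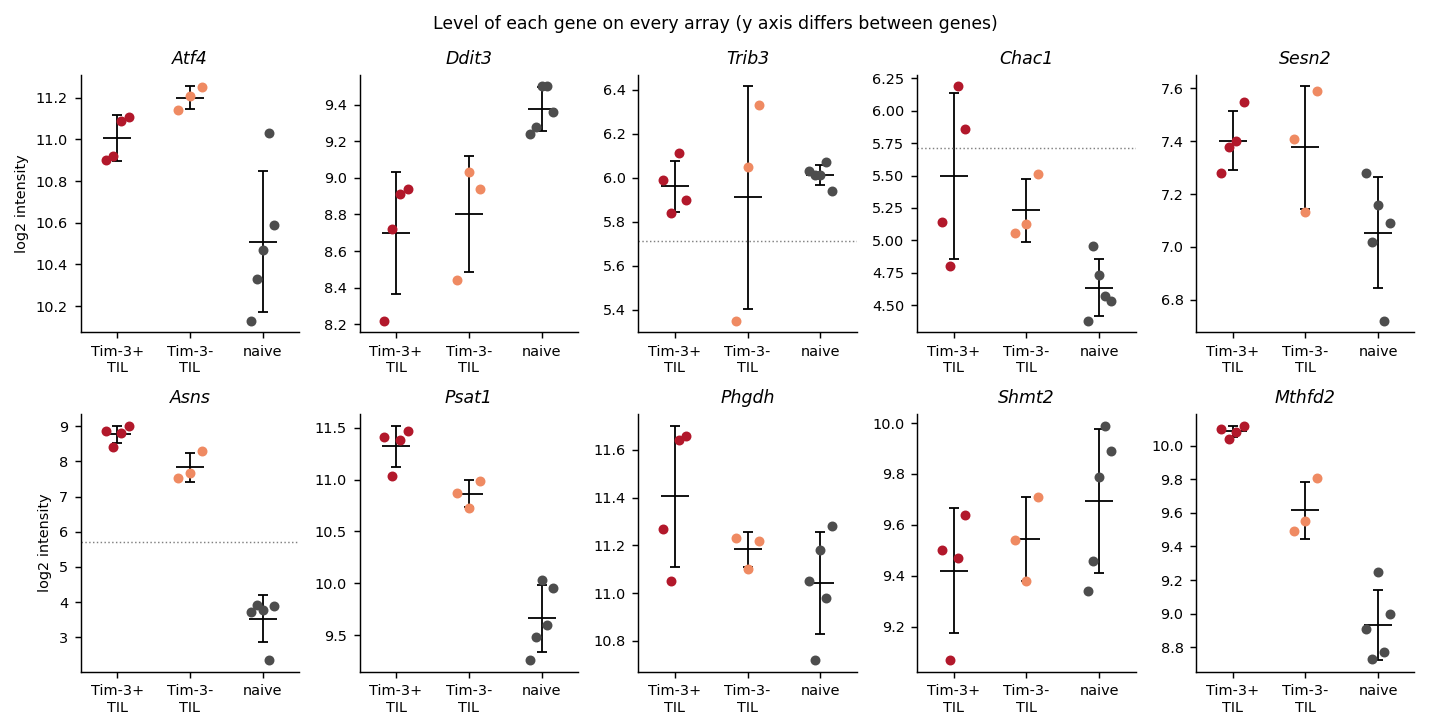
Log2 intensity of each of the 10 genes on every array, with Tim-3+ TIL (n = 4), Tim-3- TIL (n = 3) and naive cells (n = 5) from left to right. Points are arrays, the long bar is the group mean, whiskers are ± SD, and the dotted line marks log2 5.71, percentile 40 of all genes. Asns, Psat1 and Mthfd2 lie in the order Tim-3+ TIL, Tim-3- TIL, naive with no overlap between any groups.

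Asns, which encodes the enzyme that makes asparagine from aspartate and glutamine, showed the largest difference of the 10 (gene at chr6:7675165-7693209, GRCm38.p6). Its log2 level was 8.85, 8.41, 8.80 and 9.0 in Tim-3+ TIL, 7.54, 7.66 and 8.29 in Tim-3- TIL, and 3.73, 3.92, 3.79, 2.36 and 3.88 in naive cells. All TIL arrays lay far above all naive arrays, and all Tim-3+ arrays above all Tim-3- arrays. Asns rose by 5.23 ± 0.28 in Tim-3+ TIL (adjusted p = 2.44e-09) and by 4.29 ± 0.31 in Tim-3- TIL (adjusted p = 1.01e-07) against naive cells. The naive mean, 3.54 ± 0.66, stood at percentile 10.8 of all genes, and the values carry no detection calls. With naive cells set at log2 5.71, percentile 40 of all genes, Asns was at least 8.30-fold higher in Tim-3+ TIL and at least 4.34-fold higher in Tim-3- TIL. The second Asns probe set gave 6.13 ± 0.15 in Tim-3+ TIL and 5.17 ± 0.16 in Tim-3- TIL against naive. Inside sets A and B the used probe set gave 4.81 and 5.55 in Tim-3+ TIL, and 3.72 and 4.63 in Tim-3- TIL.

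The Asns change between the TIL groups was 0.94 ± 0.32 (adjusted p = 0.0763), short of the threshold. The second probe set, at 9.13, 8.84, 9.11 and 8.93 in Tim-3+ TIL and 8.14, 7.91 and 8.07 in Tim-3- TIL, changed by 0.96 ± 0.17 (adjusted p = 0.00160). With both probe sets averaged the change was 0.95 (adjusted p = 0.00470), so the call changed with the probe set at nearly the same size of difference. The set A arrays gave 1.09 (adjusted p = 0.0399) and the set B arrays 0.93 (adjusted p = 0.263).

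Psat1, the aminotransferase that carries out the second step of serine synthesis, had levels in the same order (gene at chr19:15905123-15925059). It stood at 11.41, 11.03, 11.38 and 11.47 in Tim-3+ TIL, 10.87, 10.73 and 10.99 in Tim-3- TIL, and 9.26, 9.48, 10.03, 9.60 and 9.95 in naive cells. No array of 1 group overlapped another group. The rise against naive cells was 3.17-fold in Tim-3+ TIL (1.66 ± 0.15, adjusted p = 7.53e-07) and 2.30-fold in Tim-3- TIL (1.20 ± 0.17, adjusted p = 6.39e-05). Within sets A and B the rise was 1.85 and 1.57 in Tim-3+ TIL, and 1.50 and 1.00 in Tim-3- TIL. Tim-3+ minus Tim-3- TIL was 0.46 ± 0.18 (adjusted p = 0.111), which did not pass, although the second probe set did (0.44 ± 0.13, adjusted p = 0.0451). With the array sets as a block it was 0.51 (adjusted p = 0.0296), but that block was taken from the spread of these same arrays.

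Mthfd2, the mitochondrial folate enzyme that is low in most resting adult tissues and high in dividing cells, was the 1 member called between the TIL groups (gene at chr6:83305704-83326011). Its levels were 10.10, 10.04, 10.08 and 10.12 in Tim-3+ TIL, 9.49, 9.55 and 9.81 in Tim-3- TIL, and 8.91, 8.73, 9.25, 8.77 and 9.0 in naive cells. Every group lay apart from the others, and the Tim-3+ arrays were the most alike (SD 0.036). Mthfd2 rose by 1.15 ± 0.11 in Tim-3+ TIL (adjusted p = 1.27e-06) and by 0.69 ± 0.12 in Tim-3- TIL (adjusted p = 0.00053) against naive cells. It was 1.38-fold higher in Tim-3+ TIL than in the Tim-3- cells (0.47 ± 0.13, adjusted p = 0.0265). That call was lost in 5 of 7 fits that left out 1 array, those without Tim-3+ replicate 1, 3 or 4 or Tim-3- replicate 1 or 2, with changes between 0.40 and 0.47 and adjusted p between 0.0502 and 0.103. Inside sets A and B the rise against naive was 1.25 and 1.09 in Tim-3+ TIL, and 0.67 and 0.68 in Tim-3- TIL. The TIL difference inside sets A and B was 0.58 (adjusted p = 0.0727) and 0.42 (adjusted p = 0.160). The second probe set gave 0.48 ± 0.13 (adjusted p = 0.0215).

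Phgdh, the dehydrogenase that opens serine synthesis, did not pass in any comparison with the probe set used. It was at 11.27, 11.05, 11.64 and 11.66 in Tim-3+ TIL, 11.23, 11.10 and 11.22 in Tim-3- TIL, and 11.05, 10.72, 11.18, 10.98 and 11.28 in naive cells, with overlap between all groups. The change in Tim-3+ TIL against naive cells was 0.36 ± 0.14 (adjusted p = 0.0562). It was 0.39 (adjusted p = 0.0138) with the array sets as a block, which was taken from the spread of these same arrays. With the replicate number as a block it was 0.42 (adjusted p = 0.0128), without Tim-3+ replicate 2 it was 0.48 (adjusted p = 0.0133), and without naive replicate 5 it was 0.42 (adjusted p = 0.0363). Inside sets A and B it was 0.27 (adjusted p = 0.246) and 0.51 (adjusted p = 0.00892). Of the other 3 probe sets that name Phgdh alone, 2 passed in this comparison, at 0.53 ± 0.11 (adjusted p = 0.00170) and 0.42 ± 0.15 (adjusted p = 0.0303). In Tim-3- TIL the change against naive was 0.14 ± 0.16 (adjusted p = 0.529), while Tim-3+ minus Tim-3- TIL gave 0.22 ± 0.16 (adjusted p = 0.476). That last difference split by set, at -0.08 in set A (adjusted p = 0.868) and 0.49 in set B (adjusted p = 0.0441). All probe sets for Phgdh are of the kind whose probes can match other transcripts, and 2 further ones also name predicted genes. Of the same kind are the probe sets used for Atf4, Shmt2 and Trib3, and the Asns and Psat1 probe sets that passed between the TIL groups.

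Shmt2, the mitochondrial enzyme that splits serine into glycine and a one-carbon unit, passed in no comparison with the probe set used. It averaged 9.42 ± 0.25 in Tim-3+ TIL, 9.54 ± 0.17 in Tim-3- TIL and 9.69 ± 0.28 in naive cells, and the groups overlapped. The changes against naive were -0.27 ± 0.15 (adjusted p = 0.175) in Tim-3+ TIL and -0.15 ± 0.17 (adjusted p = 0.531) in Tim-3- TIL, and Tim-3+ minus Tim-3- TIL was -0.12 ± 0.17 (adjusted p = 0.760). Inside sets A and B the changes against naive were -0.12 and -0.33 in Tim-3+ TIL, and 0.14 and -0.34 in Tim-3- TIL, none of which passed by limma (adjusted p between 0.0788 and 0.679). One of its other 3 probe sets was lower in Tim-3- TIL than in naive cells (-0.54 ± 0.13, adjusted p = 0.00473), with 8.91, 8.90 and 8.99 in Tim-3- TIL against 9.17, 9.35, 9.79, 9.48 and 9.58 in naive cells.

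Atf4, the transcription factor at the centre of the response, was high in all groups and higher in TIL (gene at chr15:80255184-80257545). It stood at 10.90, 10.92, 11.09 and 11.11 in Tim-3+ TIL, 11.14, 11.21 and 11.25 in Tim-3- TIL, and 10.13, 10.33, 10.47, 11.03 and 10.59 in naive cells. On this probe set the Tim-3- arrays lay above all others, and naive replicate 4 reached into the Tim-3+ range. Atf4 rose by 0.50 ± 0.15 in Tim-3+ TIL (adjusted p = 0.0144) and by 0.69 ± 0.16 in Tim-3- TIL (adjusted p = 0.00399) against naive cells. The Tim-3+ change was 0.68 inside set A (adjusted p = 0.00848) and 0.41 inside set B (adjusted p = 0.0852), and the Tim-3- change 0.91 and 0.53. A second Atf4 probe set, with no naive array above 10.16 and no TIL array below 10.80, gave larger changes of 1.05 ± 0.11 in Tim-3+ TIL (adjusted p = 4.19e-06) and 1.04 ± 0.13 in Tim-3- TIL (adjusted p = 1.62e-05). Tim-3+ minus Tim-3- TIL was -0.19 ± 0.17 (adjusted p = 0.569) on the probe set used. On the second one the TIL groups overlapped, at 10.80, 11.03, 11.17 and 11.16 in Tim-3+ TIL and 10.87, 11.11 and 11.12 in Tim-3- TIL.

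Ddit3, which encodes CHOP, the factor linked to cell death under lasting stress, went the other way on the probe set used (gene at chr10:127290793-127296291). Its levels were 8.22, 8.72, 8.91 and 8.94 in Tim-3+ TIL, 8.44, 9.03 and 8.94 in Tim-3- TIL, and 9.24, 9.28, 9.50, 9.50 and 9.36 in naive cells. All TIL arrays lay below all naive arrays. Ddit3 fell by 0.68 on the log2 scale in Tim-3+ TIL (SE 0.16, adjusted p = 0.00291) and by 0.57 in Tim-3- TIL (SE 0.17, adjusted p = 0.0181) against naive cells. The second, dimmer Ddit3 probe set had the opposite sign, at 0.20 ± 0.20 in Tim-3+ TIL (adjusted p = 0.477) and 0.34 ± 0.22 in Tim-3- TIL (adjusted p = 0.260). With both averaged the changes were -0.24 (adjusted p = 0.278) and -0.11 (adjusted p = 0.671), so no direction for Ddit3 held across its probe sets. Inside sets A and B the used probe set gave -0.79 and -0.53 in Tim-3+ TIL, and -0.82 and -0.47 in Tim-3- TIL. The Tim-3- call was also lost without Tim-3- replicate 1 (-0.39, adjusted p = 0.104). Tim-3+ minus Tim-3- TIL was -0.11 ± 0.18 (adjusted p = 0.803).

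**Figure D2:**
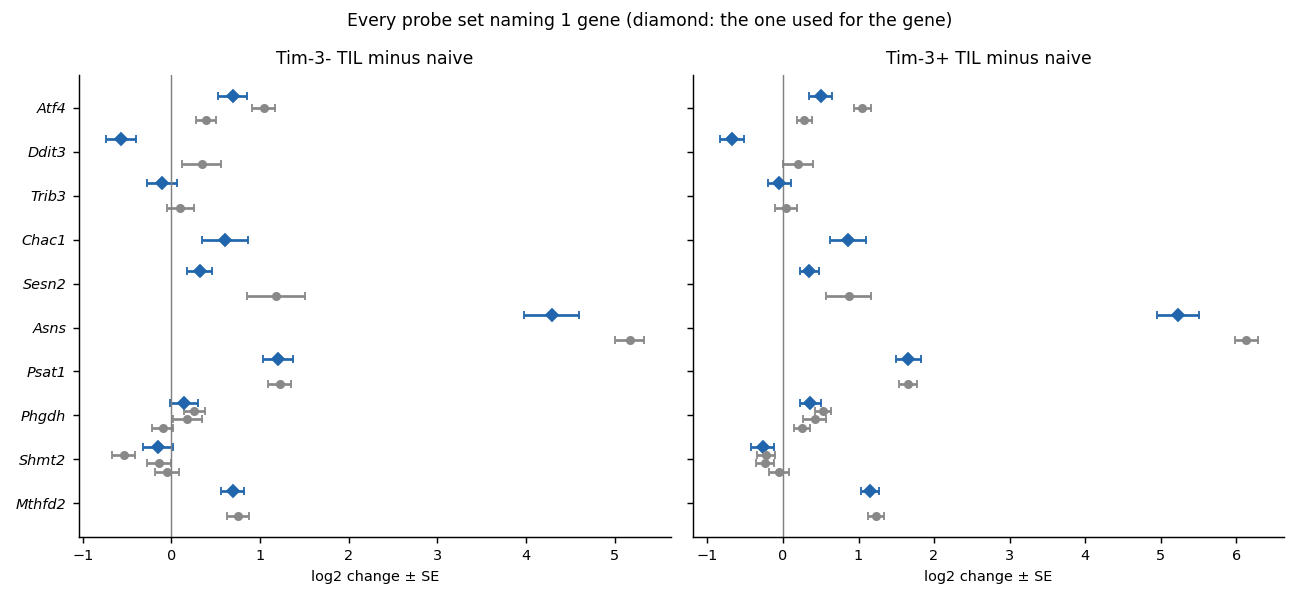
Log2 change ± SE against naive cells for every probe set that names 1 member alone, in Tim-3- TIL (left) and Tim-3+ TIL (right). Diamonds are the probe sets used for the genes and circles the others. The Asns, Psat1 and Mthfd2 probe sets lie on the same side of 0, whereas those of Ddit3 lie on both sides.

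Sesn2, a sestrin that restrains the growth kinase mTORC1 when leucine is short, rose by 0.35 ± 0.13 in Tim-3+ TIL against naive cells (adjusted p = 0.0403). Its levels were 7.28, 7.38, 7.40 and 7.55 in Tim-3+ TIL, 7.41, 7.13 and 7.59 in Tim-3- TIL, and 7.28, 7.02, 7.16, 6.72 and 7.09 in naive cells. The groups touched or overlapped, and the Tim-3+ call was lost in 6 of 9 fits without 1 array, those without Tim-3+ replicate 2, 3 or 4 or naive replicate 2, 4 or 5 (0.26 to 0.36, adjusted p between 0.0585 and 0.116). It was also lost with the replicate number as a block (0.36, adjusted p = 0.0625), while inside sets A and B the change was 0.18 and 0.48 (adjusted p = 0.368 and 0.0647). Scaling the arrays again by quantiles (0.24, adjusted p = 0.127) or by medians (0.28, adjusted p = 0.0743) lost it too. In Tim-3- TIL the change was 0.32 ± 0.14 (adjusted p = 0.0913), or 0.44 (adjusted p = 0.0371) without Tim-3- replicate 2 and 0.75 (adjusted p = 0.00375) with probe sets averaged, and Tim-3+ minus Tim-3- TIL was 0.03 ± 0.14 (adjusted p = 0.944). The second Sesn2 probe set moved more, by 0.87 ± 0.30 in Tim-3+ TIL (adjusted p = 0.0297) and 1.18 ± 0.33 in Tim-3- TIL (adjusted p = 0.0114).

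Chac1 lay below log2 5.71 on average and Trib3 just above it. Chac1, which degrades the antioxidant glutathione, was at 5.14, 4.80, 6.19 and 5.86 in Tim-3+ TIL, 5.06, 5.13 and 5.51 in Tim-3- TIL, and 4.38, 4.96, 4.73, 4.57 and 4.53 in naive cells. Its mean lay below log2 5.71 in every group, and its Tim-3+ arrays split by array set, those of set B being the higher. Chac1 rose by 0.86 ± 0.24 in Tim-3+ TIL against naive (adjusted p = 0.00895), by 1.41 within set B (adjusted p = 0.000147) and by 0.30 within set A (adjusted p = 0.361), the last short of the threshold. Tim-3+ minus Tim-3- TIL was 0.26 ± 0.27 (adjusted p = 0.639), and 0.70 inside set B (adjusted p = 0.0330). In Tim-3- TIL the change against naive was 0.60 ± 0.26 (adjusted p = 0.0925). It passed with array weights (0.69, adjusted p = 0.0400), with the 2 groups alone (0.60, adjusted p = 0.0120) and inside set B (0.71, adjusted p = 0.00764), and was 0.39 inside set A (adjusted p = 0.370). Trib3, a pseudokinase that feeds back on ATF4, averaged 5.96 ± 0.12 in Tim-3+ TIL, 5.91 ± 0.50 in Tim-3- TIL and 6.01 ± 0.048 in naive cells. Its changes of -0.05 ± 0.15 and -0.11 ± 0.17 against naive did not pass (adjusted p = 0.822 and 0.679), nor did 0.05 ± 0.17 between the TIL groups (adjusted p = 0.904). In set A, where the 1 Tim-3- array was at 5.35, Trib3 was lower in Tim-3- TIL than in naive cells (-0.67, adjusted p = 0.0210), while set B gave 0.18 (adjusted p = 0.313). Of the 3 members whose promoters held TGATGNAA, Asns rose in both TIL groups, Chac1 in Tim-3+ TIL, and Trib3 in neither.

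**Figure D3:**
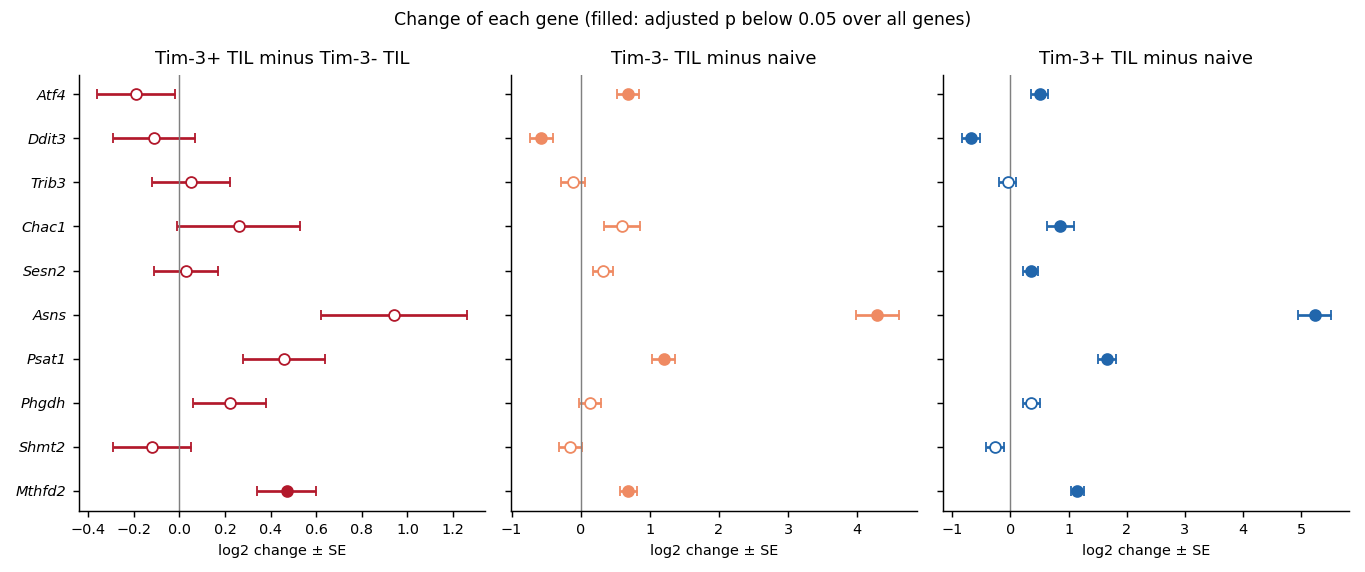
Log2 change ± SE of each member in the 3 comparisons, Tim-3+ minus Tim-3- TIL, Tim-3- TIL minus naive and Tim-3+ TIL minus naive, from 1 limma fit of 12 arrays. Filled points have adjusted p below 0.05 over all genes. Mthfd2 is the 1 filled point between the TIL groups.

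The rest of the serine, glycine and folate pathway was read next. Of 17 measured genes beside the members, 10 rose and 3 fell in Tim-3+ TIL against naive (median 0.46), that is 58.8% and 17.6% beside 20.1% and 21.4% of all genes. Tim-3- TIL had 6 rises and 3 falls (median 0.01), or 35.3% and 17.6% beside 16.1% and 18.3%. Set against Tim-3- TIL, 6 rose and 0 fell in Tim-3+ TIL, with a median of 0.40 beside 0.01 over all genes, or 35.3% rising beside 7.77%. The lists that follow have the same backgrounds. Psph, the phosphatase of the last step of serine synthesis, was 8.83 ± 0.087 in Tim-3+ TIL, 8.20 ± 0.023 in Tim-3- TIL and 8.37 ± 0.20 in naive cells. It rose in Tim-3+ TIL against Tim-3- TIL (0.63 ± 0.12, adjusted p = 0.00263) and against naive (0.45 ± 0.10, adjusted p = 0.0027, or 0.0849 inside set B), and in Tim-3- TIL it changed by -0.17 ± 0.11 (adjusted p = 0.273). Its lowest mean was in Tim-3- TIL, whereas those of Psat1 and Mthfd2 were in naive cells.

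Gldc, the glycine decarboxylase of the mitochondrial glycine cleavage system, had the largest change of these genes. It averaged 9.69 ± 0.30 in Tim-3+ TIL, 8.05 ± 0.24 in Tim-3- TIL and 5.41 ± 0.31 in naive cells, where it was below log2 5.71. Its Tim-3+ level was 3.13 times the Tim-3- level (1.65 ± 0.20, adjusted p = 6.94e-05). With naive cells at log2 5.71 it was at least 15.8-fold higher in Tim-3+ TIL and at least 5.05-fold higher in Tim-3- TIL. Gcsh, the carrier protein of the same system, rose by 0.45 ± 0.11 between the TIL groups (adjusted p = 0.0134, or 0.0773 without Tim-3- replicate 2), and Ggh, which trims the glutamate tails of folates, by 0.65 ± 0.15 (adjusted p = 0.00927). Inside sets A and B Gcsh gave 0.43 and 0.48 (adjusted p = 0.129 and 0.0582) and Ggh 0.86 and 0.54 (adjusted p = 0.0338 and 0.0614).

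Of the other known targets of ATF4, most that passed against naive rose. Of 21 measured, 8 rose and 1 fell in each TIL group against naive (medians 0.26 in Tim-3+ TIL and 0.11 in Tim-3- TIL), and between the TIL groups 2 rose and 1 fell (median -0.03). The rises were 38.1% of the list against naive in either TIL group, and 9.52% between the TIL groups, the last near the background. The falls were 4.76% of the list in each comparison. Of all genes, 21.4% fell in Tim-3+ TIL and 18.3% in Tim-3- TIL against naive, and 5.77% between the TIL groups. Slc3a2, the shared heavy chain of several amino acid transporters, rose by 1.54 ± 0.13 in Tim-3+ TIL and 1.72 ± 0.15 in Tim-3- TIL against naive (adjusted p = 3.54e-07 and 5e-07). Gpt2, the mitochondrial alanine aminotransferase, was at 7.03 ± 0.28 in Tim-3+ TIL, 7.45 ± 0.46 in Tim-3- TIL and 5.01 ± 0.20 in naive cells. Its changes against naive of 2.02 ± 0.18 in Tim-3+ TIL and 2.44 ± 0.19 in Tim-3- TIL (adjusted p = 4.34e-07 and 2.83e-07) were 1.23 and 1.16 with probe sets averaged, so their size and order rest on the probe set used. Ddit4, an inhibitor of mTORC1 that ATF4 and other stress factors induce, fell by 1.05 on the log2 scale in Tim-3+ TIL (SE 0.14, adjusted p = 2.01e-05) and by 1.20 in Tim-3- TIL (SE 0.15, adjusted p = 1.86e-05). Ero1a, an oxidase of the endoplasmic reticulum, was 1 of the 2 that rose between the TIL groups (0.81 ± 0.12, adjusted p = 0.000463).

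Among 19 cytosolic tRNA synthetases, which charge tRNAs with amino acids and include several ATF4 targets, the naive comparison gave 8 rises and 1 fall for Tim-3+ TIL, and 5 rises and 2 falls for Tim-3- TIL. Tim-3+ against Tim-3- TIL, 5 rose and 0 fell (median 0.32). The rises made up 42.1%, 26.3% and 26.3% of the list in that order. Aars, for alanine, rose by 1.21 ± 0.14 in Tim-3+ TIL and 0.77 ± 0.16 in Tim-3- TIL against naive (adjusted p = 8.82e-06 and 0.00145), the Tim-3- change being 0.46 inside set A (adjusted p = 0.0688) and 0.91 inside set B (adjusted p = 0.00201). Kars, for lysine, was 10.24 ± 0.12 in Tim-3+ TIL and 9.73 ± 0.085 in Tim-3- TIL, a rise of 0.51 ± 0.11 (adjusted p = 0.00551), with 0.56 and 0.43 inside sets A and B (adjusted p = 0.0672 and 0.0632).

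Upstream of Atf4, Eif2ak3, which encodes PERK, the kinase that senses unfolded protein, averaged 9.60 ± 0.28 in Tim-3+ TIL, 9.09 ± 0.74 in Tim-3- TIL and 7.63 ± 0.16 in naive cells. It rose by 1.97 ± 0.23 in Tim-3+ TIL (adjusted p = 7.24e-06) and by 1.45 ± 0.25 in Tim-3- TIL (adjusted p = 0.000372) against naive. The Tim-3- change was 0.49 inside set A (adjusted p = 0.247) and 1.96 inside set B (adjusted p = 8.93e-06). Eif2ak4, which encodes GCN2, the sensor of uncharged tRNA, changed by 0.47 ± 0.15 in Tim-3- TIL (adjusted p = 0.0259) and by 0.30 ± 0.14 in Tim-3+ TIL (adjusted p = 0.0993). The rise did not pass once any 1 of 4 arrays, Tim-3- replicate 2 or 3 or naive replicate 1 or 2, was left out (adjusted p between 0.0532 and 0.129), or inside set A (0.37, adjusted p = 0.114). With probe sets averaged Eif2ak4 passed in both, at 0.64 in Tim-3- TIL (adjusted p = 0.00101) and 0.41 in Tim-3+ TIL (adjusted p = 0.0101). Oma1, a mitochondrial protease that relays mitochondrial stress to eIF2, was lower in both TIL groups than in naive cells, by -0.55 ± 0.099 in Tim-3+ TIL and -0.97 ± 0.11 in Tim-3- TIL (adjusted p = 0.000409 and 7.76e-06). Of the 7 kinases and sensors, Tim-3+ TIL had 1 rise and 2 falls and Tim-3- TIL had 2 rises and 1 fall against naive, close to the background for so short a list.

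Ppp1r15a, which encodes GADD34, the phosphatase subunit that ends the response by removing phosphate from eIF2, peaked in Tim-3- TIL. It averaged 9.03 ± 0.32 in Tim-3+ TIL, 9.78 ± 0.093 in Tim-3- TIL and 8.65 ± 0.39 in naive cells. It was lower in Tim-3+ than in Tim-3- TIL (-0.75 ± 0.22, adjusted p = 0.0344), with the arrays apart, and higher in Tim-3- TIL than in naive cells (1.13 ± 0.21, adjusted p = 0.000673). The call between TIL groups was lost in 6 of 7 fits that left out 1 array (all but the one without Tim-3+ replicate 2), with changes between -0.78 and -0.66 and adjusted p between 0.0723 and 0.0941. It was also lost inside set A (-0.63, adjusted p = 0.167). Of the 9 measured eIF2, eIF2B and phosphatase subunits, Tim-3+ TIL had 1 rise and 1 fall against naive (11.1% each). Tim-3- TIL had 1 rise and 0 falls (11.1% and 0%), and these shares against naive lay below the background. Between the TIL groups 1 rose and 1 fell, or 11.1% each beside 7.77% and 5.77% of all genes. In so short a list 1 gene makes up 11.1%.

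Among the bZIP factors that can pair with ATF4, Jdp2 rose by 3.67 ± 0.16 in Tim-3+ TIL and 3.29 ± 0.18 in Tim-3- TIL against naive (adjusted p = 2.83e-10 and 5.24e-09). With probe sets averaged the Jdp2 changes were smaller, 1.91 and 1.86. Atf3 rose by 2.35 ± 0.25 and 2.47 ± 0.27 in the same order (adjusted p = 2.64e-06 and 6.23e-06), at least 2.41-fold and at least 2.62-fold with naive cells at log2 5.71. Cebpb rose by 2.23 ± 0.23 and 1.44 ± 0.25 (adjusted p = 1.96e-06 and 0.000391), or 1.14 and 0.77 with probe sets averaged. Nfe2l2, which encodes the oxidative stress factor NRF2, fell by 2.40 in Tim-3+ TIL and by 1.80 in Tim-3- TIL on the log2 scale (SE 0.13 and 0.14, adjusted p = 1.74e-09 and 1.83e-07). With probe sets averaged its changes were -0.93 in Tim-3+ TIL (adjusted p = 4.71e-05) and -0.24 in Tim-3- TIL (adjusted p = 0.228). Against naive, 4 of the 8 genes of this list, which counts Nupr1 beside bZIP factors, rose and 2 fell in Tim-3+ TIL. Tim-3- TIL had 3 rises and 2 falls, and the rises made up 50% and 37.5% of the list in that order. Nfe2l2 was the 1 factor called between the TIL groups (-0.60 ± 0.14, adjusted p = 0.0125) and it did not pass when Tim-3- replicate 2 (-0.52, adjusted p = 0.0689) or 3 (-0.52, adjusted p = 0.0640) was left out, or inside set A (-0.14, adjusted p = 0.694).

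The other arms of the unfolded protein response, run by IRE1 and ATF6, gave 10 rises and 1 fall of 14 genes in Tim-3+ TIL against naive (median 0.72). In Tim-3- TIL 8 rose and 3 fell (median 0.60), and between the TIL groups 3 rose and 1 fell (median 0.15). The rises made up 71.4%, 57.1% and 21.4% of the list in that order. Ern1, which encodes IRE1, rose by 2.30 ± 0.17 in Tim-3+ TIL and 2.14 ± 0.19 in Tim-3- TIL, and Atf6 by 2.64 ± 0.19 and 2.31 ± 0.21. With probe sets averaged Ern1 changed by 1.33 and 1.11.

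**Figure D4:**
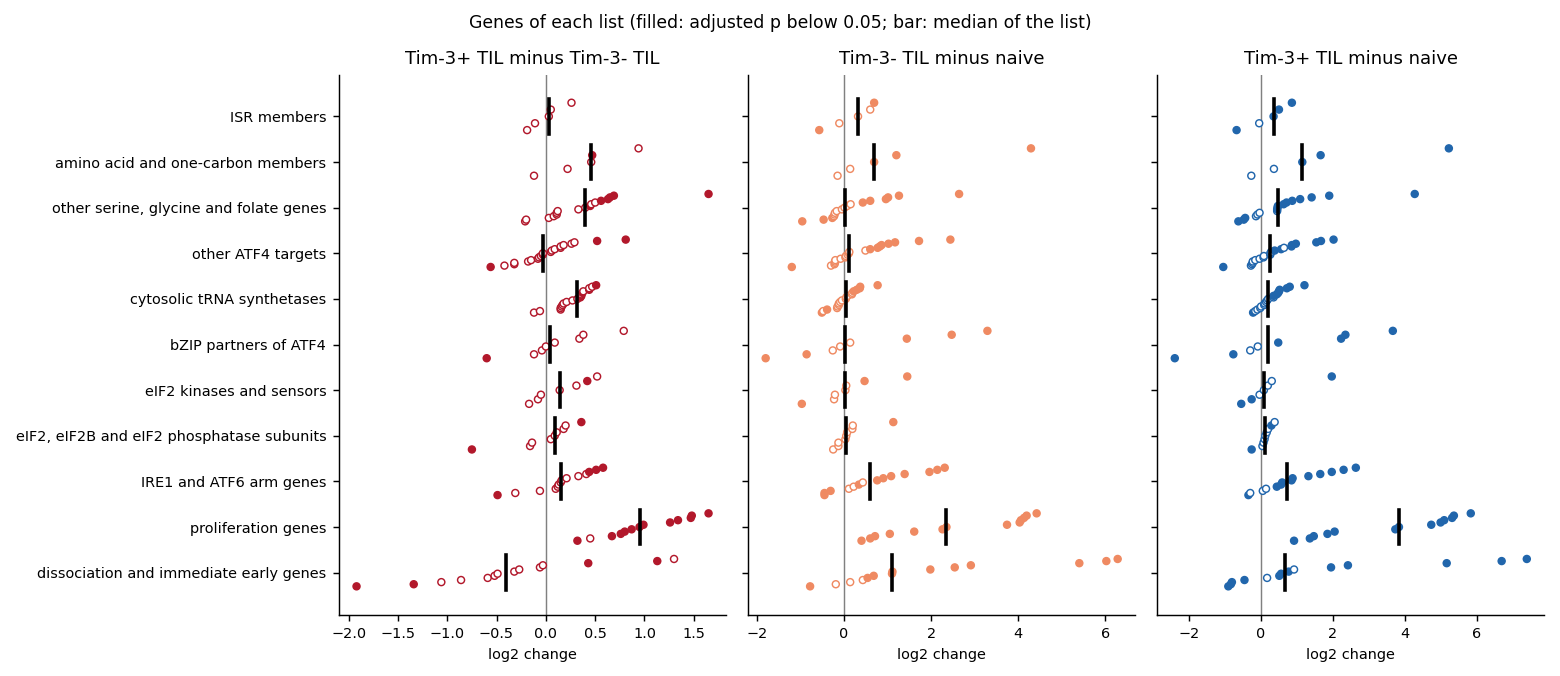
Log2 change of every measured gene of each list in the 3 comparisons. Points are genes, filled where adjusted p is below 0.05 over all genes, and the bar is the list's median. The ISR members are Atf4, Ddit3, Trib3, Chac1 and Sesn2. The proliferation genes lie to the right of 0 in every panel.

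Genes of other processes moved along with the members. Of 13 proliferation genes, 13 rose in each TIL group against naive (medians 3.84 in Tim-3+ TIL and 2.35 in Tim-3- TIL) and 12 rose between the TIL groups (median 0.95). Mki67, which encodes Ki-67, averaged 12.29 ± 0.19 in Tim-3+ TIL, 11.62 ± 0.42 in Tim-3- TIL and 7.20 ± 0.26 in naive cells. Of 14 dissociation and immediate early genes, Tim-3+ TIL had 8 rises and 4 falls against naive, and Tim-3- TIL 10 rises and 1 fall. Hspa1a, a heat shock gene, was at least 23.4-fold higher in Tim-3+ TIL and at least 10.7-fold higher in Tim-3- TIL with naive cells at log2 5.71. Their summed log2 level ranged from 13.73 to 14.19 in Tim-3+ TIL, 14.14 to 14.43 in Tim-3- TIL and 13.17 to 13.64 in naive cells. The part of proliferation or of tissue handling in the members' changes was not tested.

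Markers of other cells were read in the same way. Of 7 melanoma markers, Tim-3+ TIL had 4 rises (Mlana, Tyrp1, Dct and Tyr) and 1 fall (Pmel) against naive, and Tim-3- TIL 2 rises and 1 fall. Their summed log2 level ranged from 8.23 to 10.19 in Tim-3+ TIL, 8.61 to 9.34 in Tim-3- TIL and 8.71 to 9.12 in naive cells, and 2, 3 and 5 of the 7 lay below log2 5.71 in that order. Of 7 monocyte and macrophage markers, 5 lay below it in each group, and the summed level was 8.26 to 8.76, 8.71 to 8.94 and 7.99 to 8.38. Cd68 was the 1 of them called, higher in both TIL groups than in naive cells and lower in Tim-3+ than in Tim-3- TIL. Its call between the TIL groups was lost in 3 of 7 fits that left out 1 array. Cd4 and Foxp3, which mark helper and regulatory T cells, both lay above log2 5.71 in every group. Their summed levels were 8.18 to 8.39 in Tim-3+ TIL, 8.53 to 8.77 in Tim-3- TIL and 7.76 to 7.95 in naive cells. Both were called higher in Tim-3- TIL than in naive cells, and Cd4 alone in Tim-3+ TIL. Foxp3 was called lower in Tim-3+ than in Tim-3- TIL, and Cd4 was not called there. Of 3 B cell markers, 2 fell in each TIL group against naive, Cd79b by -3.29 ± 0.11 in Tim-3+ TIL and -2.52 ± 0.12 in Tim-3- TIL and Cd79a by -0.87 ± 0.13 and -0.96 ± 0.14. Their summed level ranged from 6.67 to 6.90 in Tim-3+ TIL, 7.13 to 7.23 in Tim-3- TIL and 8.95 to 9.37 in naive cells. Of 5 fibroblast and endothelial markers, 3 lay below log2 5.71 in each group, with summed levels of 7.88 to 8.19, 8.75 to 8.86 and 9.82 to 10.16 in the same order. Pecam1 of that list fell by 3.06 in Tim-3+ TIL and by 1.60 in Tim-3- TIL on the log2 scale. The part of any of these markers in the members' changes was not tested.

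The genes whose pattern over the 12 arrays was nearest to a member were found for the 3 members whose group means spanned over 1 on the log2 scale, by the root mean square difference of values centred on each gene's mean. Asns was nearest to the chemokine gene Ccl5 (0.34) and to Cetn4 (0.36), Psat1 to Tfdp1 (0.11) and Ctnna1 (0.13), and Mthfd2 to Slbp (0.10) and Alyref (0.11). Slbp, the histone mRNA binding protein, averaged 11.87 in Tim-3+ TIL, 11.45 in Tim-3- TIL and 10.78 in naive cells.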

How the data were processed

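Normalized intensities per probe set were deposited by the authors for 12 arrays on a linear scale, and RMA and the affy package are named per the submitters' processing notes. Versions, the return to linear values and any joint normalization were not given in the sources used here. Here log2 was taken with no pseudocount. Of 45101 probe sets, 64 are controls, 34945 name 1 gene, 932 several and 9160 none. The highest-mean probe set gave each of 18193 genes its value, with symbols of 34741 probe sets updated through RefSeq gene identifiers. No filter on dim genes was applied, and log2 5.71, percentile 40 of gene means, served as the bound for dim groups. The number of arrays limits the precision.

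One limma fit (version 3.58.1, R 4.3.3) of 3 group means gave the 3 comparisons, two-sided, with Benjamini-Hochberg adjustment over all genes, and was tested on simulated data. Python 3.11.15 with numpy 2.4.6, pandas 2.3.3 and matplotlib 3.10.9 did the rest. The members and lists (181 entries, 170 measured) were chosen with earlier results of these data known, and some listed genes are not analysed here. The genes named are the members, up to 3 genes with the smallest adjusted p per pathway list, the brightest markers, 5 fixed genes and the nearest patterns, and the text leaves some out. Cd8b1 and the melanoma markers that moved were named after their values were seen. Deviations from group means in Tim-3+ TIL and naive arrays of the same replicate number had r between 0.13 and 0.32 in 4 of 4 pairs. Each of these pairs also lies in 1 array set, so pairing by number cannot be told apart from a shared set. For Tim-3- TIL, r was negative for replicate 2, which lies in another set than replicate 2 of the other groups. Alternatives were the value per gene, normalization, a pseudocount, a filter on dim genes, moderation, array weights, groups fitted, blocks, array sets and leaving out each array.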

Additional observations from a re-analysis of the deposited data

Results flagged for a closer look

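Among 126 sets of arrays, 1 gene in 1 group of 4 or 5 arrays each, 10 had an array far from the rest of its group by Dixon's criterion, where chance gives about 5%. Asns in naive replicate 4 was at log2 2.36, with the other naive arrays between 3.73 and 3.92. Without that array the Asns change stayed called in both TIL groups. Atf3 in Tim-3+ replicate 3 was at 7.54, with the others between 6.74 and 6.85. Jdp2, Mki67 and Csf3r were highest in naive replicate 2, at 6.03, 7.65 and 5.93. Gldc was lowest in naive replicate 5, at 4.86, with the others between 5.47 and 5.61. Cd8a was lowest in naive replicate 3, at 12.76. Ccl5, the gene nearest to Asns in pattern, was lowest in naive replicate 4, at 7.42, as Asns was, and highest in Tim-3+ replicate 2, at 13.37. The nearest gene was chosen over these same arrays, naive replicate 4 among them, so a low value shared there was favoured. Tfdp1 was lowest in Tim-3+ replicate 2, at 11.36.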

How the results depend on the processing

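Between the TIL groups, 1 member was called in the reported fit, 3 with probe sets averaged, and 2 with the most variable probe set, a pseudocount of 16, the 2 groups alone, the replicate block, the array sets as a block, and within set B. Leaving out 1 array gave 0 to 1 called members between the TIL groups, 4 to 6 for Tim-3- TIL and 6 to 7 for Tim-3+ TIL against naive. Genes called without 1 array numbered 1666 to 2447, 5136 to 6046 and 6858 to 7239 in that order, against 2463, 6252 and 7554 with all arrays. Within set A, 1590 genes were called between the TIL groups. Tested one by one, 4568, 12457 and 15001 probe sets were called, out of 34945 rather than 18193. Tim-3- replicate 2, in set B, had r of deviations of -0.13 and -0.15 with replicate 2 of Tim-3+ TIL and naive, in set A. The replicate block gave 2 called members between the TIL groups, adding Asns (1.08, adjusted p = 0.0464). In Tim-3+ TIL against naive, where arrays of the same number share a set, the block changed the calls of Sesn2 and Phgdh given above and of no other member. Ddit3 reversed with its second probe set, at 0.34 in Tim-3- TIL and 0.20 in Tim-3+ TIL. The dendritic cell marker Zbtb46, at -0.29 and -0.32 against naive in Tim-3+ and Tim-3- TIL, was at 1.06 and 1.04 with probe sets averaged and 4.39 and 4.42 with the most variable one. The causes were not tested. Asns, Psat1 and Mthfd2 against naive kept their direction and call in every alternative run. Chac1 has no value under the filter on dim genes, which removes it. Without detection calls, changes against dim groups such as naive Asns have no firm size.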

Other observations

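A pair of probe sets names Phgdh together with a predicted gene and entered no comparison. The one shared with Gm8096 had log2 levels of 9.03, 8.86, 9.09 and 9.17 in Tim-3+ TIL, 8.17, 8.22 and 8.61 in Tim-3- TIL, and 8.33, 8.16, 8.78, 8.01 and 8.38 in naive cells, with all Tim-3+ arrays above the others. The one shared with Gm6756 had 8.73, 8.46, 8.67 and 8.82 in Tim-3+ TIL, 8.60, 8.20 and 8.24 in Tim-3- TIL, and 8.36, 7.99, 8.23, 7.88 and 8.12 in naive cells. These values were not tested.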
